A study of Mus musculus with 1920 samples.

Results

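The 10 genes described here, Itga1, Itga2, Itga3, Itga6, Itgav, Itgb1, Itgb4, Itgb5, Itgb6 and Itgb8, encode integrin subunits, and they were taken by name from the 55471 genes of the count table. Each was read in sorted single cells of the mouse intestinal crypt. The remaining 16 integrin subunit genes of the mouse served as a side list. The members were chosen by name and not by any measured value, although earlier results of these data were known when they were chosen.

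The study sorted Lgr5 high intestinal stem cells (ISCs) one per well from 3 young and 4 aged mice and sequenced full-length cDNA of each cell by a Smart-seq2 method, which carries no molecular identifiers. All 7 mice were of strain B6.129P2-Lgr5tm1(cre/ERT2)Cle/J, with a knock-in at the Lgr5 locus through which Lgr5-expressing cells can be sorted by a fluorescent reporter. The labels name the groups Young and Old, and the age in weeks and the sex of the sequenced mice were not found in the labels or methods. No treatment is named for these cells.

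Of the sorted cells, 1836 had at least 1000 detected genes and were kept (84 did not), with a median of 305492 reads and 9398.5 detected genes. The kept reads summed to between 49447464 and 134408884 per mouse. Since cells of 1 mouse are not independent animals, reads were summed per mouse and ages were compared over 7 mice. Of the kept cells, 1543 had their highest mean marker level in a list of ISC genes (ISC-led cells), and the rest were led by markers of Paneth cells (127), enterocytes, goblet cells or other types. An Lgr5 read was present in 98.3% of the ISC-led cells. Markers of immune cells summed to at most 4.18 reads per 1000000 reads of the mouse (CPM) and stromal markers to at most 6.71 CPM in any mouse, while ISC markers summed to at least 17177 CPM. The cell names end in a code shared by 384 cells, which the labels do not explain. It is called a lane here because the methods name 384 cells per lane. They also name 384-well plates, so the code may stand for a plate. Cells of both ages were together in 3 of 5 lanes, while aged mouse 4 and young mouse 3 each filled a lane alone. The 3 shared lanes held aged mouse 1 with young mouse 2, aged mouse 3 with young mouse 1, and aged mouse 2 with young mouse 2.

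Integrins are receptors built from 1 alpha and 1 beta chain that span the cell membrane and hold epithelial cells to the basement membrane. The beta1 chain pairs with many alpha chains, among them the collagen-binding alpha1 and alpha2 and the laminin-binding alpha3 and alpha6, whereas beta4 pairs with alpha6 and anchors hemidesmosomes to keratin filaments. The alphav chain pairs with beta5, beta6 and beta8 and binds ligands that carry an RGD motif, including the latent form of TGF-beta.

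Transcripts of the beta1 and alpha6 chains were the most abundant of the 10 per length of exon. Itgb1 had a mean of 20.3 ± 2.49 CPM per kb (SD, n = 7 mice) and Itga6 a mean of 15.7 ± 1.81 CPM per kb, and the ranges of these 2 genes over the mice overlapped. With the longest transcript in place of all annotated exons as the length, Itga6 had 32.9 and Itgb1 21.8 CPM per kb, so which of them came first depended on the gene model. Itga2 followed with 8.36 ± 1.15 CPM per kb and Itgb4 with 7.72 ± 1.16 CPM per kb, below Itga6 without overlap and overlapping each other.

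Itgb6, Itga3 and Itga1 formed the middle of the order, at 5.11 ± 1.23, 3.53 ± 0.479 and 2.77 ± 0.579 CPM per kb (SD, n = 7), and each overlapped its neighbour in range. Itgav, the alpha chain that partners beta5, beta6 and beta8, stood below these without overlap at 0.796 ± 0.136 CPM per kb. Itgb5 was lower still at 0.286 ± 0.184 CPM per kb, and its highest mouse was below the lowest mouse of Itgav.

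Itgb8 was nearly undetected, with a read in 3 of 1836 cells. It had 0 reads in 4 of the 7 mice, and a count of 0 there allows a level of up to between 0.043 and 0.0607 CPM (counting error only). Its highest value was 0.578 CPM in aged mouse 4, where all 76 reads came from 1 cell. It did not pass the filter on low counts in the comparison of ages, which leaves 9 members tested there.

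**Figure D1:**
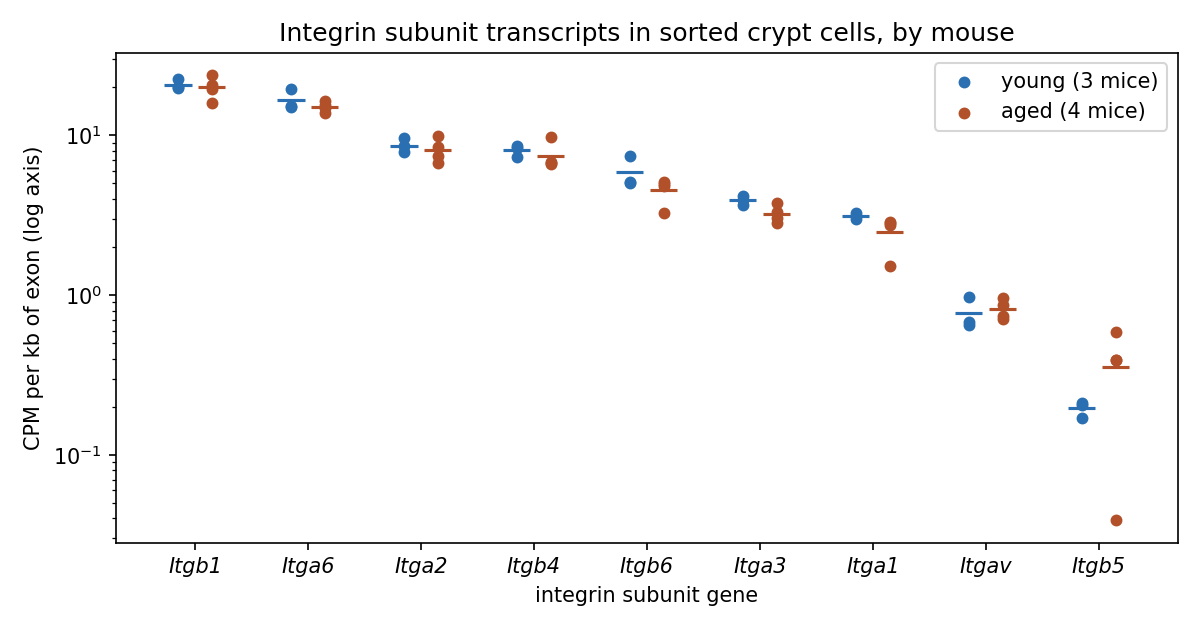
Level of 9 integrin subunit genes, in CPM per kb of exon on a log axis, with 1 point per mouse (3 young, 4 aged) and a line at each group's mean. Itgb1 and Itga6 lie highest in every mouse, Itgav and Itgb5 lowest, and the 2 ages interleave for every gene plotted except Itga1. Itgb8 is left out because it was at 0 in 4 mice.

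The share of cells with at least 1 read followed the order of CPM, which is not divided by length, and not that of CPM per kb. Over the mice, Itga6 was read in 96.2 to 98.9% of cells and Itgb1 in 93.1 to 96.8%. Itga2 was read in 81 to 92.1%, Itga1 in 76.8 to 88.6% and Itgb4 in 75.7 to 90.3% of cells. After each cell was thinned to 100000 reads, so that depth was equal, the means over mice were 98% for Itga6, 93.1% for Itgb1, 84.4% for Itga2, 80.5% for Itgb4, 77.1% for Itga1, 64% for Itgb6, 56.2% for Itga3, 31.2% for Itgav and 6.52% for Itgb5. Thinning left out 104 cells with fewer reads.

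The mix of chains was much the same from mouse to mouse. Among the 5 alpha chains, Itga6 made up 50.4 ± 3.76% of the summed CPM per kb (SD, n = 7 mice), Itga2 26.8 ± 3.54%, Itga3 11.3 ± 1.44%, Itga1 8.82 ± 1.56% and Itgav 2.57 ± 0.531%. Among the 5 beta chains, Itgb1 made up 60.8 ± 5.72%, Itgb4 23.2 ± 3.84%, Itgb6 15.2 ± 3.03% and Itgb5 0.889 ± 0.623%. The summed alpha and beta levels stood at a ratio of 0.934 ± 0.0643 and Itga6 stood to its hemidesmosome partner Itgb4 at 2.07 ± 0.323.

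Aged mouse 4 departed from this mix for several chains. There Itga1 held 5.36% of the alpha pool, against 9.01 to 9.89% in the other 6 mice, Itgb4 held 31.1% of the beta pool, against 19.1 to 23.8%, and Itgb1 held 51.1%, the lowest of the 7. For each of the 10 genes the shares in the 2 ages overlapped. The share of Itga6 depended on the length used and was 64% with the longest transcript.

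**Figure D2:**
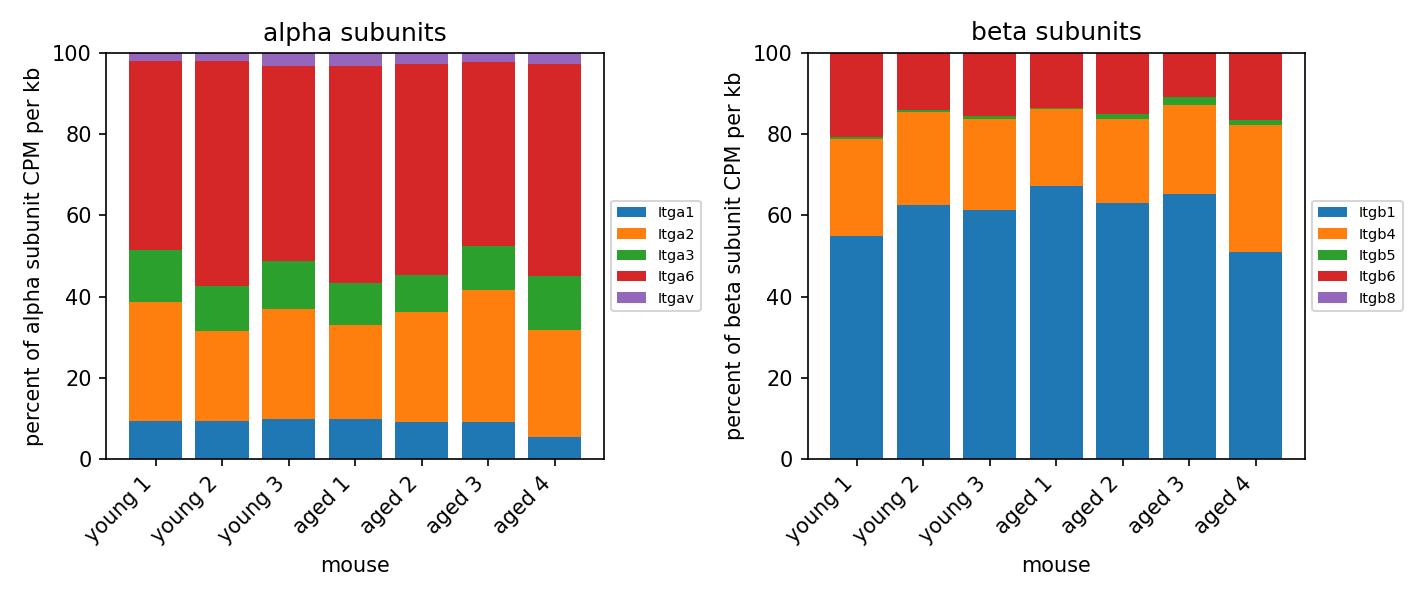
Share of each subunit in the summed alpha (left) and beta (right) CPM per kb, in percent, 1 stacked bar per mouse. Itga6 fills 45.3 to 55.4% of the alpha pool and Itgb1 51.1 to 67.2% of the beta pool, and aged mouse 4 has the smallest Itga1 and the largest Itgb4 share.

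Does the integrin set of these cells differ with age? No member passed the test. In edgeR's quasi-likelihood test over 20957 genes, 0 of the 9 members tested had a Benjamini-Hochberg adjusted p under 0.05, against a background of 0% of all genes (0 of 20957, with 1098 at an unadjusted p under 0.05). None of the 9 members reached an unadjusted p under 0.05 either. DESeq2 called 0 members and 0.845% of all genes. The fitted change was above 0 for 2 and below 0 for 7 of the 9, with a median log2 fold change of -0.05 beside 0.01 over all genes tested. These sums hold all kept cells. Of these, ISC-led cells were 87.5 to 93.2% in young and 71.3 to 88.9% in aged mice. In ISC-led cells alone 0 members were called as well.

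Itgb1 had 80.6, 92 and 81.9 CPM in young mice 1 to 3 and 97, 84.6, 80 and 65 CPM in aged mice 1 to 4. The values of the ages overlapped fully, with group means of 84.8 ± 6.22 (SD, n = 3) and 81.6 ± 13.2 CPM (SD, n = 4). The log2 fold change of Itgb1 was -0.0025 with an SE of 0.16. The 95% interval ran from a level 21.7% lower to a level 27.2% higher in aged mice, so a change inside these bounds was not excluded.

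Itga6 had 137, 176 and 137 CPM in young mice 1 to 3 and 139, 147, 125 and 133 CPM in aged mice 1 to 4. Its log2 fold change was -0.08 ± 0.14 (SE), with an interval from 24.4% lower to 18.3% higher, the narrowest of the 9. Itgb4 had 60, 58.1 and 51.5 CPM in young and 47.4, 47.7, 46.3 and 68.1 CPM in aged mice 1 to 4. For Itgb4 the highest and the 3 lowest of the 7 values were all from aged mice, and the log2 fold change was -0.05 ± 0.19 (SE). Without aged mouse 4, which filled a lane alone, it was -0.22. Within the 3 lanes that held both ages the log2 ratio of Itgb4 was -0.29, -0.37 and -0.29, below 0 in each. Young mouse 2 was the young side of the first and the last of these lanes, so the ratios within lanes, here and below, are not independent of each other. That of Itga6 was -0.41, -0.13 and -0.20.

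The collagen receptor chain Itga1 was the 1 member of 9 whose ages did not overlap, which 5.92% of all genes tested showed (1240 of 20957). It had 56.1, 60.6 and 57.8 CPM in young mice 1 to 3 and 52.7, 53.5, 51.2 and 28.1 CPM in aged mice 1 to 4. The gap between the lowest young and the highest aged mouse was small beside the distance of aged mouse 4 from the other aged mice. The log2 fold change was -0.28 ± 0.22 (SE; 95% interval -0.76 to 0.21) and -0.11 without aged mouse 4. Within the 3 lanes that held both ages it was -0.35, -0.13 and -0.04, and with the lane as a block -0.11.

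Itga2, which lies next to Itga1 on chromosome 13 with 20995 bases between the genes, had 68.2, 55.7 and 60.9 CPM in young and 47.8, 60.7, 71.1 and 53 CPM in aged mice 1 to 4. Its log2 fold change was -0.03 ± 0.18 (SE). The laminin receptor chain Itga3 had 23.7, 22.4 and 21 CPM in young and 17.5, 16.2, 18.8 and 21.5 CPM in aged mice 1 to 4. Over all kept cells the ages overlapped for Itga3 through aged mouse 4 and young mouse 3. Its log2 fold change was -0.22 ± 0.18 (SE), with -0.17, -0.33 and -0.61 in the 3 lanes with both ages. In the ISC-led cells given below for 5 mice, Itga3 was lower in aged mice 2, 3 and 4 than in young mice 1 and 3.

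The chains of the RGD-binding receptors did not pass the test either. Itgb6 had 53, 35.8 and 36.2 CPM in young and 34.3, 35.4, 23.2 and 36.2 CPM in aged mice 1 to 4, and its log2 fold change of -0.32 ± 0.22 (SE) had an interval from -0.82 to 0.18. Within the 3 shared lanes the log2 ratio of Itgb6 was 0.05, -1.19 and -0.11, so the lane of aged mouse 3 and young mouse 1 differed from the others. Itgav had between 6.98 and 10.5 CPM in the 7 mice, with a log2 fold change of 0.14 ± 0.25 (SE).

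Itgb5 had 0.61, 0.75 and 0.72 CPM in young and 0.14, 1.4, 2.09 and 1.4 CPM in aged mice 1 to 4, so 3 aged mice lay above the young and 1 below. Its log2 fold change of 0.92 ± 0.72 (SE) carried the widest interval, from -0.68 to 2.53. Markers of enterocytes summed to 932 to 2692 CPM in aged and 959 to 1217 CPM in young mice, with all 12 markers of the list higher in the aged mean. In ISC-led cells alone Itgb5 had 0.52, 0.73 and 0.61 CPM in young and 0.073, 1.25, 2.2 and 0.51 CPM in aged mice 1 to 4, so that 2 aged mice lay above the young and 2 below. The log2 fold change there was 0.76. The part of these cells in the value was not tested beyond this.

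**Figure D3:**
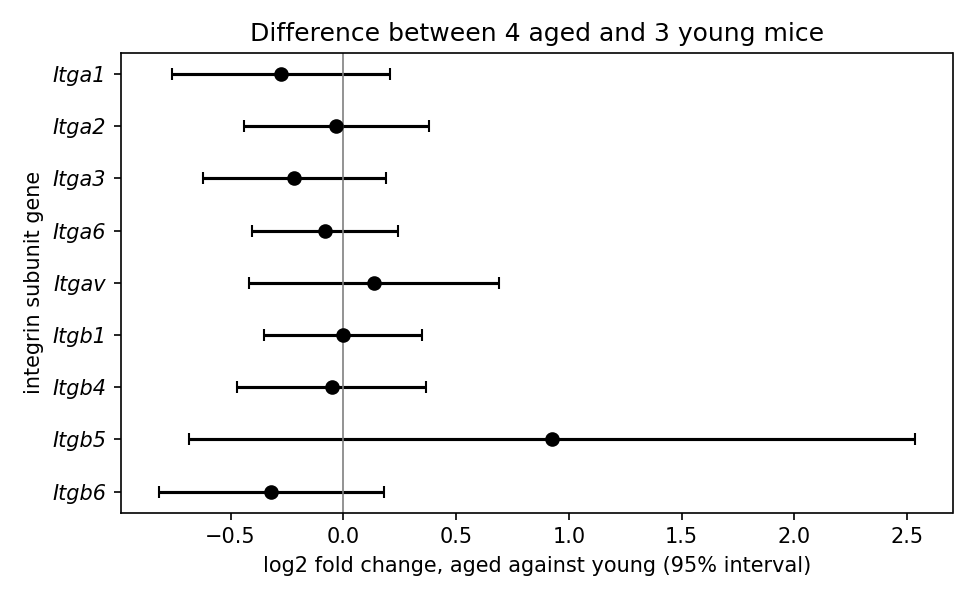
Log2 fold change between 4 aged and 3 young mice for the 9 members tested, with 95% intervals from edgeR. All 9 intervals include 0, the widest is that of Itgb5 and the narrowest that of Itga6.

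The sorted cells were not all of 1 kind, which allowed the members to be compared between classes of cell within the same mouse. Cells were classed by the marker list with the highest mean log2(CPM + 1), no member is in any of these lists, and the mouse was a block in the fit. Of the kept cells, 65 had their leading list ahead by less than 0.5 on this scale. No doublet caller was run on these plates of single sorted cells, and an Lgr5 read was present in 93.7% of Paneth-led, 81.4% of enterocyte-led and 88.9% of goblet-led cells, and whether all reads of a well came from 1 cell was not tested.

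Enterocyte-led cells had more transcript of Itga3, Itgb4 and Itgb5 than ISC-led cells of the same mouse. The comparison held 86 enterocyte-led cells of 5 mice with at least 5 such cells (3 aged and 2 young, and 43 of the cells from aged mouse 4). Of the 9 members tested, 3 were called, all 3 higher, against 15.0% of all genes called (2933 of 19491) and 8.25% called higher. The median depth was 178002.5 reads in enterocyte-led and 318888.5 in ISC-led cells, while the median number of detected genes was 9666 and 9370.

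Itga3, which pairs with beta1 as a laminin receptor, had 32.4 CPM in enterocyte-led against 23.2 in ISC-led cells of young mouse 1, and 44.4 against 20.3 in young mouse 3. In aged mice 2, 3 and 4 the values were 37.7 against 13.1, 30.6 against 17.8 and 47.7 against 18.7 CPM. The classes did not overlap, and the log2 fold change was 1.32 ± 0.27 (SE; edgeR adjusted p = 0.00401).

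Itgb4 had 94.3 CPM in enterocyte-led against 58.2 in ISC-led cells of young mouse 1, and 67.9 against 51.2 in young mouse 3. In aged mice 2, 3 and 4 the values were 59 against 45.9, 81.1 against 44.8 and 112 against 64.2 CPM. It was higher in 5 of 5 mice although the ranges of the classes met, with a log2 fold change of 0.86 ± 0.19 (SE; edgeR adjusted p = 0.00815). Its partner Itga6 did not pass the test, at 102 ± 12.1 in enterocyte-led and 142 ± 10.6 CPM in ISC-led cells (SD, n = 5 mice) and a log2 fold change of -0.25 ± 0.18 (SE; edgeR adjusted p = 0.394).

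Itgb5 had 5.63 CPM in enterocyte-led against 0.52 in ISC-led cells of young mouse 1, and 2.98 against 0.61 in young mouse 3. In aged mice 2, 3 and 4 it had 3.9 against 1.25, 5.81 against 2.2 and 12.9 against 0.51 CPM. The enterocyte-led values rested on 4 to 104 reads per mouse, with 104 of them in aged mouse 4. The log2 fold change was 2.87 ± 0.64 (SE; 95% interval 1.49 to 4.24, edgeR adjusted p = 0.0077).

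Without aged mouse 4, Itga3 remained past the threshold (log2 fold change 1.19, edgeR adjusted p = 0.0353), while Itgb4 (0.77, p = 0.0671) and Itgb5 (2.31, p = 0.0681) did not. The members that did not pass here included the collagen receptor chains, with log2 fold changes of -0.53 for Itga1 and -0.43 for Itga2, and both were lower in 5 of 5 mice. Both were called lower with total counts as the only scaling, and both and Itga6 when the leading list had to be ahead by 1. Itgb1, Itgav and Itgb6 had 0.05, -0.11 and -0.15, and Itgb8 had 0 reads in the enterocyte-led cells. The median of all genes was -0.27 in this fit and -0.52 with total counts as the only scaling, and measured from these medians Itga3 was 1.59 higher under both and Itgb4 1.13 and 1.14 higher. The values under the second scaling add no support, because a change of scaling moves all genes by about the same amount.

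**Figure D4:**
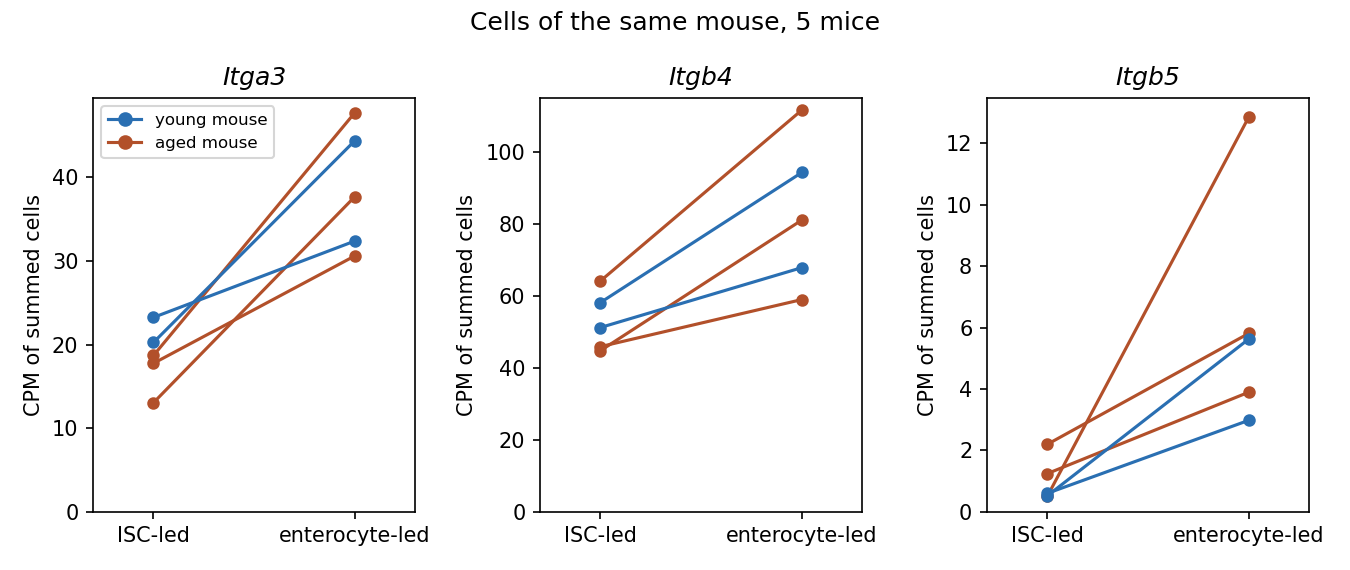
CPM of Itga3, Itgb4 and Itgb5 in ISC-led and enterocyte-led cells, with 1 line for each of 5 mice (2 young, 3 aged). The 3 genes are higher in the enterocyte-led cells of every mouse, and the highest enterocyte-led value of each is that of aged mouse 4.

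The promoters of the called genes Itga3 and Itgb5 are shown beside that of Itgb1, which did not pass the test between these classes, so that their sequence can be compared. Each window runs from 250 bases before to 50 bases after a transcription start in RefSeq on GRCm38.p6, written 5′ to 3′ on the gene's strand, with matches to the GC box GGGCGG on either strand in capitals. The windows are chr11:95076665-95076964 on the minus strand for Itga3 (the upstream of its 2 starts), chr16:33829415-33829714 on the plus strand for Itgb5 and chr8:128685404-128685703 on the plus strand for Itgb1.
Itga3: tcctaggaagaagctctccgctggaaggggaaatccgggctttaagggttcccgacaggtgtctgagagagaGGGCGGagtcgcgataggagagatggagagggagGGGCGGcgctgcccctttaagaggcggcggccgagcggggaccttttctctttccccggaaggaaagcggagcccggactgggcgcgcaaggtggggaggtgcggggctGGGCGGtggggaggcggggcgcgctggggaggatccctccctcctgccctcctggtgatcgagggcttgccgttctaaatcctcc
Itgb5: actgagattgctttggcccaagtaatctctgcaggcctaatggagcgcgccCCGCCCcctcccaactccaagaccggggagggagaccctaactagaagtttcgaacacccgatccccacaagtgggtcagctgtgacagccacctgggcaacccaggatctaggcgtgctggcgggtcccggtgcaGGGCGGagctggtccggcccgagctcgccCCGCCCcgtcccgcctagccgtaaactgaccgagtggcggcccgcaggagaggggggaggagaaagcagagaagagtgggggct
Itgb1: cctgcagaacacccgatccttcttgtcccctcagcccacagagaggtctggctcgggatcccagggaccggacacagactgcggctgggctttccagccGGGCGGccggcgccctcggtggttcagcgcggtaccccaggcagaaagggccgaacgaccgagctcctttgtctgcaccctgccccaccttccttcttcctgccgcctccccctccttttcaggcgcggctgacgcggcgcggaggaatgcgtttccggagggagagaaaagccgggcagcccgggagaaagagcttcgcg
In the windows shown, Itga3 and Itgb5 held 3 GC boxes each and Itgb1 held 1. Of the windows not shown, Itga2, Itgav and the downstream window of Itga3 held 1 each, and those of Itga1, Itgb6 and Itgb8 held 0. A GC box was found in 6 of 10 member windows (8 of the 10 genes had a window, and Itga6 and Itgb4 did not) and in 35.7% of all 32851 windows. The letters CAAAGTCCA, an HNF4 motif, were in 0 of the 10 windows beside 0.475% of all, and CTTTGNT, a TCF/LEF motif, was in 1 (the downstream window of Itga3) beside 18.6% of all. These are counts of letters and say nothing of binding.

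Paneth-led cells were compared in all 7 mice. Reads of 12 Paneth markers took 25.2 to 49.9% of the total in Paneth-led and at most 0.109% in ISC-led cells, and the CPM of Itga1, Itga2, Itga6, Itgav, Itgb1, Itgb4 and Itgb6 was lower in the Paneth-led cells of 7 of 7 mice. Itgb4, for example, had 30.7, 33.5 and 41.1 CPM in Paneth-led against 58.2, 59.2 and 51.2 CPM in ISC-led cells of young mice 1 to 3. In aged mice 1 to 4 it had 24.3, 44, 34.5 and 56 against 47.4, 45.9, 44.8 and 64.2 CPM.

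Itgb4 was nonetheless called higher under edgeR's scaling, which sets a gene beside the other genes. A single call among 9 members was no more than the share of all genes called. With edgeR's trimmed mean scaling, Itgb4 was 0.53 ± 0.15 (SE) higher on the log2 scale (edgeR adjusted p = 0.0248), the only call among 9 members, beside 13.3% of all genes called (2655 of 19992) and 6.06% called higher. With total counts as the only scaling the median of all genes moved from -0.19 to -1.22 and Itgb4 turned to -0.51 (edgeR adjusted p = 0.036), one of 7 members then called lower. Measured from the median of all genes, Itgb4 was 0.72 higher in the first and 0.7 higher in the second fit. These values had to be close, because a change of scaling moves all genes by about the same amount, so the second adds no support to the first. The call was lost when aged mouse 2, aged mouse 4 or young mouse 3 was left out (edgeR adjusted p = 0.0541, 0.0814 and 0.0599), with log2 fold changes between 0.51 and 0.6 without any 1 mouse.

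Itga3 (log2 fold change 0.62 ± 0.21 SE, edgeR adjusted p = 0.0553) and the RGD receptor chain Itgb6 (-0.60 ± 0.22 SE, edgeR adjusted p = 0.0778) lay next to the threshold in Paneth-led cells. Itgb6 was lower in CPM in 7 of 7 mice. Measured from the median of all genes, Itga3 was 0.81 higher and Itgb6 0.42 lower under edgeR's scaling, and 0.8 higher and 0.42 lower with total counts, values that again had to be close. Itga1, Itga2, Itga6, Itgav, Itgb1 and Itgb5 had log2 fold changes of -0.14, -0.21, 0.20, -0.07, 0.05 and 0.87, and Itgb8 had 0 reads in the Paneth-led cells.

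Goblet-led cells gave no call among the members, at 45 cells from 4 mice. The background there was 2.45% of all genes called (474 of 19344). Itga3 was highest among the members with a log2 fold change of 0.87 ± 0.38 (SE; unadjusted p = 0.041 and edgeR adjusted p = 0.332), and was higher in 3 of 4 mice. Itga2 was higher in 4 of 4 mice, at 75.1 ± 11.1 against 64.3 ± 7.11 CPM (SD, n = 4), and Itga1 (-0.64) and Itgav (-0.64) had the same fitted value to 2 decimals. Itga6, Itgb1, Itgb4, Itgb5 and Itgb6 had log2 fold changes of 0.03, 0.11, 0.21, -0.75 and -0.36.

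Tuft-led (14 cells of 6 mice) and enteroendocrine-led cells (4 cells of 3 mice) were too few to test. In the pooled tuft-led cells Itga6 had 112, Itgb4 111, Itgb1 103 and Itga2 61.6 CPM, and Itga6, Itgb1 and Itgb4 had a read in each of the 14 cells. In the pooled enteroendocrine-led cells Itgb1 had 150, Itga6 97.1 and Itgb4 44.7 CPM.

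**Figure D5:**
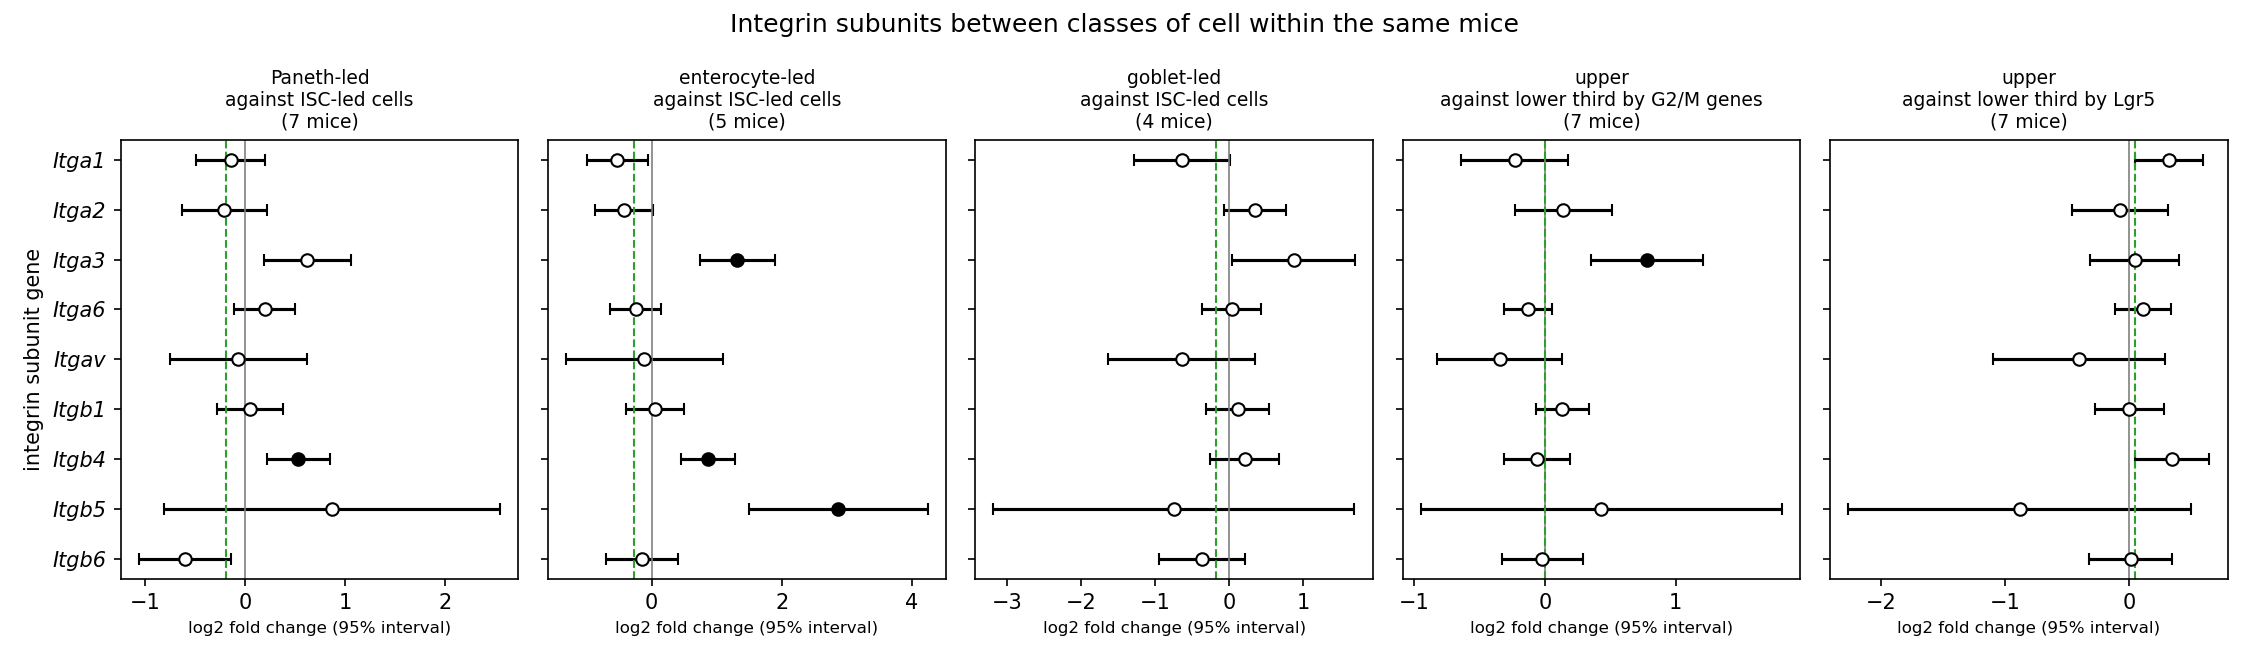
Log2 fold change of 9 members with 95% intervals in 5 comparisons between cells of the same mice (7, 5, 4, 7 and 7 mice). Filled points passed an edgeR adjusted p of 0.05, open points did not, and the dashed line is the median of all genes in that fit. Filled are Itgb4 in Paneth-led, Itga3, Itgb4 and Itgb5 in enterocyte-led cells and Itga3 in the upper tercile by G2/M genes.

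Within the ISC-led cells, the upper tercile of cells by mean level of 15 G2/M genes was set against the lower tercile, 513 cells each, in 7 mice. Itga3 was the 1 of 9 members called, beside 11.9% of all genes (2330 of 19561) and 7.21% called higher. As in Paneth-led cells, 1 call among 9 members was no more than the share of all genes called. Itga3 had 44.6, 25.3 and 21.4 CPM in the upper against 16.8, 22.3 and 20.1 CPM in the lower tercile of young mice 1 to 3, and 24.1, 17.4, 22 and 22.4 against 10.2, 10.3, 10.4 and 13 CPM in aged mice 1 to 4. The upper tercile was higher in 7 of 7 mice, by little in young mice 2 and 3.

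The log2 fold change of Itga3 between these terciles was 0.78 ± 0.19 (SE; edgeR adjusted p = 0.0254). This call was lost in cells thinned to 100000 reads, with 0.35 (edgeR adjusted p = 0.0941), where shallow cells were left out, the terciles were drawn anew and each cell had the same weight. It was also lost in 5 of the 7 fits that left out 1 mouse, which were those without any 1 of the 4 aged mice or without young mouse 1, at adjusted p between 0.0559 and 0.0669. Median depth was 316753 reads in the upper and 317194 in the lower tercile, and the median number of detected genes 9946 and 8434. Itgb1 (0.13), Itga2 (0.14), Itga1 (-0.23), Itga6 (-0.13), Itgav (-0.35), Itgb4 (-0.06), Itgb5 (0.43) and Itgb6 (-0.02) did not pass.

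Between the upper and lower terciles of the ISC-led cells by Lgr5 level no member passed the test, beside 7.68% of all genes called (1566 of 20384). Itgb4 and Itga1 came nearest and were higher in the upper tercile in 7 of 7 mice. Itgb4 had a mean of 61 ± 9.76 against 44.1 ± 9.66 CPM and Itga1 63.9 ± 13.9 against 46.6 ± 10.7 CPM (SD, n = 7), with log2 fold changes of 0.35 ± 0.14 and 0.32 ± 0.12 (SE; edgeR adjusted p = 0.146 and 0.145). Itgb4 passed in thinned cells and Itga1 with total counts as the only scaling. Itga6, Itga3, Itgb6, Itgb1, Itga2, Itgav and Itgb5 had log2 fold changes of 0.11, 0.04, 0.01, 0.0009, -0.08, -0.41 and -0.88.

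Correlations between members from cell to cell were low in these sparse counts. Spearman's rho of log2(CPM + 1) was computed within each mouse over its ISC-led cells thinned to 100000 reads. Its mean over 7 mice lay between -0.03 and 0.12 for the 45 pairs, 6 of which were above 0 in every mouse. Itgb8 had no read in 4 mice, where its rho has no value and was entered as 0. Pairs with Itgb8 could therefore not be above 0 in every mouse. The mean rho was highest for Itga2 with Itga3 (0.12, from -0.08 to 0.27 over mice), and the receptor partners Itga6 and Itgb4 had 0.06 and Itga6 and Itgb1 0.05. Of these cells, 78.3% on average had a read of both Itga6 and Itgb4 (69.3 to 84.3% over mice) and 91.9% of both Itga6 and Itgb1, while Itgav and Itgb6 were read together in 21.4%.

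Genes most like a member across cells were sought among 10328 genes read in at least 20% of these cells in every mouse. Other members that met this cut were included. The closest genes had low coefficients as well. Itga6 was nearest to mt-Nd5 (mean rho 0.25, from 0.13 to 0.39 over 7 mice) and Slc12a2 (0.25), Itga3 to Hnf4a (0.23) and Tmem236 (0.20), Itgb6 to Nceh1 (0.23) and Cmtm6 (0.20), and Itga1 to Sorbs2 (0.21, from 0.09 to 0.29) and Mgam (0.20). Itgb1 was nearest to Ctnnb1 (0.19) and Tm9sf2 (0.19), Itgb4 to Tonsl (0.19) and Tubgcp2 (0.18), Itga2 to Fam120a (0.18) and Plaa (0.18), Itgav to Dag1 (0.15) and Zfp868 (0.15), and Itgb5 to Zfp654 (0.12) and Rhou (0.12). For Itgb8, Gm7008 and Akr1b10 came first (0.05 each). Itgb8 had a read in 3 cells in all, and its rho was entered as 0 in the 4 mice without one, so these 0.05 values say nothing of likeness. Cells of the same mouse are not independent, and those of young mouse 2 came from different lanes. Values of this size are a description of sparse counts.

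The other 16 integrin subunit genes were scarce, and 3 of them (Itgae, Itga5 and Itgam) had a mean of at least 1 CPM over the 7 mice. The highest was Itgae, the alphaE chain that pairs with beta7 and binds E-cadherin, at a mean of 2.59 CPM per kb, between the means of Itga1 and Itgav. Itgae ran from 2.99 to 31.5 CPM over the mice, so this place holds for the mean alone. Of the 16, 10 were tested for age, 0 were called, 2 had an unadjusted p under 0.05, and the median log2 fold change was 0.16.

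Itgae had 2.99, 5.81 and 4.63 CPM in young mice 1 to 3 and 31.5, 11.4, 11.6 and 14.9 CPM in aged mice 1 to 4, with no overlap (as for 5.92% of all genes). Its log2 fold change was 2.01 ± 0.41 (SE; 95% interval 1.09 to 2.92), with an adjusted p of 0.322 in edgeR and 0.000127 in DESeq2. Its partner Itgb7, at 0.1 to 1.59 CPM, had a log2 fold change of 1.90 ± 0.64 (SE; edgeR adjusted p = 0.808). Since alphaE is best known from intraepithelial T cells, immune markers were read beside it. Cd3e, Cd3g and Cd8a were at most 0.182 CPM in any mouse, and 39.1% of cells had an Itgae read. The 8 immune markers summed to 1.03 to 4.18 CPM in young and 0.587 to 2.58 CPM in aged mice. The highest young sum held 3.37 CPM of Ptprc in young mouse 3, and 6 of the 8 markers, Cd3g and Cd8a among them, had a higher mean in aged mice. The others, Ptprc and Cd3e, had a higher mean in young mice. Cd3e had 0.0905 to 0.142 CPM in young and 0.0152 to 0.0495 CPM in aged mice. Whether immune cells had a part in the Itgae reads was not tested. Itgam (-1.48, edgeR adjusted p = 1) owed its young mean to 6.43 CPM in young mouse 1, and Itga5 ranged from 1.12 to 11.8 CPM.

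Genes around the integrins were read from 4 lists of 94 genes in all, of which 78 were tested and 0 were called by edgeR (10 had an unadjusted p under 0.05, beside 1098 of all 20957 genes), while DESeq2 called 4, among them Itgae, Lama5 and Fyn, beside 0.845% of all genes. Of 29 basement membrane and matrix ligands, 21 were tested, and their median log2 fold change was -0.29 beside 0.01 over all genes. Among the lowest p were those of the laminin chain Lama5 (-1.10 ± 0.28 SE, edgeR adjusted p = 0.503) and of nidogen-2, Nid2 (-0.56 ± 0.23 SE, edgeR adjusted p = 0.891). Lamb3, Agrn and Lamb2 had the highest levels, at 5.41, 3.38 and 2.98 CPM per kb, and log2 fold changes of -0.45, -0.09 and -0.29.

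Of 39 integrin adaptors and activators, 37 were tested, with a median log2 fold change of -0.03. The Src family kinase gene Fyn had 7.95, 10.1 and 9.02 CPM in young and 3.04, 4.51, 3.4 and 4.28 CPM in aged mice 1 to 4, also without overlap (the same 5.92% applies), and a log2 fold change of -1.19 ± 0.26 (SE; adjusted p = 0.353 in edgeR and 0.000663 in DESeq2). The talin recruiter Apbb1ip (1.73, edgeR adjusted p = 0.791) and filamin A, Flna (-0.69, edgeR adjusted p = 0.917), came next by p. The most abundant adaptors were Fermt1 (kindlin-1, which activates beta chains), Actn4 and Tns3 at 46.9, 46.5 and 31.4 CPM per kb, with log2 fold changes of 0.06, -0.07 and -0.03.

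All 10 genes of hemidesmosome and tetraspanin partners were tested, 0 had an unadjusted p under 0.05, and the median log2 fold change was 0.07, with 8 above and 2 below 0. The tetraspanins Cd81, Tspan8 and Cd63 were far more abundant than any integrin chain, at 230, 205 and 75.2 CPM per kb, and had log2 fold changes of 0.19, -0.06 and 0.02. Cd151, the tetraspanin that binds the laminin-binding integrins, had 64 ± 7.23 CPM in young (SD, n = 3) and 74 ± 8.66 CPM in aged mice (SD, n = 4), with a log2 fold change of 0.27 ± 0.15 (SE; edgeR adjusted p = 1). Tspan1 had a log2 fold change of 0.22.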

How the data were processed

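Lgr5 high cells of 3 young and 4 aged mice were read one by one. The authors deposited raw read counts per Ensembl gene and cell (55471 genes, 1920 cells). Per the labels and methods, single-end reads were aligned to GRCm38 with HISAT2 and counted with HTSeq, with no version, annotation or strand setting named there. Antisense genes overlap 5.9% of Itgav and 7.66% of Itgb4 exons, and a same-strand gene 3.68% of Itga1, so reads there are uncertain. Labels name a SMARTER kit, the methods Smart-seq2.

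A cell needed 1000 detected genes (84 fell short), and counts were summed per mouse, or per mouse and class. The labels name separate mice, a check for a library deposited again found none, and intervals cover these 7 mice. Symbols and exon lengths came from GENCODE vM21 (55230 of 55471 genes matched). edgeR 4.0.16 (trimmed mean scaling, filterByExpr, quasi-likelihood test, R 4.3.3) with Benjamini-Hochberg adjustment over all genes tested at 0.05 gave the main results, with the mouse as a block between classes of cell. Classes needed at least 5 cells per mouse and 4 mice. DESeq2 1.42.0, limma 3.58.1, other filters, scalings and blocks, thinning and leaving out mice were alternatives, and the scripts were tested on simulated data. SE is the fold change divided by the root of F. CPM is reads per 1000000 of the summed cells. The members and lists were chosen with earlier results of these data known. Named are all members, the 3 genes per list with the smallest p for age, the 3 with the highest CPM per kb, and the 2 genes most like each member, except 1 gene that is not reported here. Protein sequences were not used here, and promoter windows came from RefSeq.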

Additional observations from a re-analysis of the deposited data

Results flagged for a closer look

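In aged mouse 4, Itga1 stood at 28.1 CPM, far below the other 3 aged mice (51.2 to 53.5 CPM), and Itgb4 stood at 68.1 CPM, far above them (46.3 to 47.7 CPM). Itgb8 was read at 0.578 CPM in the same mouse (76 reads of 1 cell) and in none of the other 3 aged mice. In aged mouse 3, Itgb6 stood at 23.2 CPM, below the other 3 aged mice (34.3 to 36.2 CPM). Each of these values lies apart from the rest of its group by Dixon's criterion for 4 samples, which chance alone meets in about 1 of 20 groups, and 10 genes were looked at. For Itgb8 any read in 1 mouse meets it, since the other 3 were at 0. Aged mouse 4 filled a lane alone, so mouse and lane cannot be told apart.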

How the results depend on the processing

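For age, 0 members were called under any of the alternatives, which included DESeq2, limma, other filters and scalings, ISC-led cells alone, blocks and each mouse left out. The fitted age change crossed 0 for Itga2 0.021 (thinned), 0.058 (lane block), -0.14 to 0.069 (1 mouse left out), Itga6 -0.13 to 0.018 (1 mouse left out), Itgav -0.14 (cells weighted equally), Itgb1 0.011 (DESeq2), 0.049 (lane block), 0.011 (relative log expression), 0.075 (replicate block), -0.084 to 0.081 (1 mouse left out) and Itgb4 0.084 (thinned), -0.22 to 0.015 (1 mouse left out). With the replicate number as a block, 0 members were called. Deviations of same-numbered mice correlated at -0.11, 0.18 and -0.22, and the labels give no pairing. The genes of the 4 lists gave 4 calls with DESeq2 and 0 in the main result. With the longest transcript as length, Itga1, Itga3, Itga6, Itgav and Itgb6 had 4.69, 4.15, 32.9, 1.21 and 7.56 CPM per kb, Itga2, Itga3 and Itga6 held 16.4, 8.09 and 64% of the alpha pool and Itgb6 19.6% of the beta pool.

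Between classes, Paneth-led cells gave 2 called members with DESeq2, limma, relative log expression scaling, no mouse block and a leading list ahead by 1, 0 without the filter on low counts, 7 with total count scaling (added after seeing the data), and 0 to 2 with a mouse left out. Enterocyte-led cells gave 6 with a leading list ahead by 1 (Itga1, Itga2 and Itga6 added, all lower), 5 with total count scaling (Itga1 and Itga2 added, both lower) and 1 to 3 with a mouse left out. The G2/M terciles gave 0 when thinned or without the mouse block and 0 to 1 with a mouse left out, and the Lgr5 terciles gave 1 when thinned or with total count scaling. Scaling also moved the share of calls that were higher. It was 1212 of 2655 in Paneth-led cells, 1495 of 2185 with relative log expression and 592 of 12397 with total counts. In enterocyte-led cells it was 1608 of 2933, 1774 of 2725 and 1310 of 4298, in goblet-led cells 386 of 474, 430 of 505 and 315 of 456, and by Lgr5 590 of 1566, 594 of 1623 and 908 of 1548.

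Log2 fold changes that turned in sign were these. With total counts they were Itga3 -0.42, Itga6 -0.85, Itgb1 -1.0, Itgb4 -0.51 and Itgb5 -0.083 in Paneth-led cells, Itgb1 -0.18 in enterocyte-led cells, Itga6 -0.094 and Itgb1 -0.014 in goblet-led cells, Itga2 0.054 by Lgr5. With other settings they were as follows. In Paneth-led cells, Itga1 0.011 (DESeq2), Itgav 0.12 (DESeq2), 0.26 (thinned), 0.035 (no mouse block), 0.072 (relative log expression), -0.14 to 0.11 (1 mouse left out) and Itgb1 -0.022 (no filter), -0.044 to 0.14 (1 mouse left out). In enterocyte-led cells, Itgav 0.0012 (leading list ahead by 1), 0.21 (no mouse block), -0.63 to 0.43 (1 mouse left out), Itgb1 -0.070 to 0.16 (1 mouse left out) and Itgb6 -0.31 to 0.011 (1 mouse left out). In goblet-led cells, Itga6 -0.018 (no filter), -0.097 to 0.15 (1 mouse left out), Itgb1 -0.016 to 0.17 (1 mouse left out) and Itgb5 0.95 (thinned), -1.67 to 0.033 (1 mouse left out). By G2/M genes, Itgb6 -0.12 to 0.022 (1 mouse left out). By Lgr5, Itga2 0.042 (thinned), -0.20 to 0.039 (1 mouse left out), Itga3 -0.014 to 0.12 (1 mouse left out), Itgb1 -0.022 (limma), -0.031 (no filter), -0.025 (no mouse block), -0.081 to 0.077 (1 mouse left out) and Itgb6 -0.058 (thinned), -0.022 (no filter), -0.055 (no mouse block), -0.056 to 0.098 (1 mouse left out). Unless scaling alone changed, the cause was not tested. With 3 and 4 mice, age effects inside the printed intervals were not excluded.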
